A study of Mus musculus with 4 samples.

Results

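The glycolysis and hypoxia-response genes described here are 36 genes chosen for their function: glucose transporters, the enzymes that turn glucose into pyruvate and lactate, the oxygen sensors and hypoxia-inducible factors, and targets of those factors. A gene was measured where a probe set of the array carried its symbol and no other, and 33 of the 36 met this, of 12394 genes named in that way on the array. Ero1l was found under its newer symbol Ero1a. The probe sets for Bnip3l also carried the symbol of a Bnip3l pseudogene, so Bnip3l was not measured, and Gpi1 and Eno1 were not analysed here. Where a gene had several probe sets, the one with the highest mean over the arrays stands for it. No measured level enters the choice of the genes by function, but the list was made with earlier results of these data known. The choice of a probe set does use its level.

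The 4 Affymetrix arrays measured RNA of hair follicle stem cells of adult female CD1/C57BL/6 mice, sorted from back skin at about postnatal day 60. Wild type (WT) mice gave 2 arrays and mice with a conditional knockout (cKO) of the T-box transcription factor gene Tbx1 gave 2, and each genotype has 1 array in set 1 and 1 in set 2. The sort used YFP, integrin α6 and CD34 in both genotypes. By the treatment text every sample was harvested 48 h after wax depilation, but other labels call set 1 quiescent and set 2 activated, so the sets go by number here. The labels used here name neither the driver of the Cre and the YFP nor any pooling of animals. They also do not state whether 2 arrays of a genotype stand for different animals, so the p-values reflect the spread of these 4 samples alone, which may be technical. For 1 value compared over 2 and 2 arrays, the exact permutation test has a smallest p of 0.333.

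Glycolysis splits glucose in the cytosol. Glucose enters through facilitative transporters, hexokinase traps it by phosphorylation, phosphofructokinase commits it to breakdown, the lower enzymes carry it to pyruvate, and lactate dehydrogenase with the monocarboxylate transporters lets the cell pass carbon on as lactate. In the hypoxia response, prolyl hydroxylases of the Egln family mark the α subunits of hypoxia-inducible factors for destruction while oxygen is present, and in low oxygen these subunits persist and activate genes that include most glycolytic enzymes. Hair follicle stem cells are known for high lactate dehydrogenase activity.

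The sorted cells carried markers of the bulge, where follicle stem cells reside: all 10 measured bulge genes, Cd34, Krt15 and Itga6 among them, lay above the limit used for dim genes (log2 intensity 5.40) on all 4 arrays. Their summed linear level was 28236 and 35988 in WT and 40505 and 40316 in cKO in sets 1 and 2, so it was higher on both cKO arrays. Bright genes weigh most in such a sum, and the single genes went both ways. The mean log2 difference cKO minus WT was 0.51 for Krt15, 0.48 for Postn and 0.39 for Cd34. It was -0.45 for Lhx2, -0.11 for Tcf7l2 and -0.04 for Lgr5. Tbx1 read 10.53 and 10.37 on the WT arrays and 9.54 and 8.88 on the cKO arrays of sets 1 and 2 (limma adjusted p = 0.172, and 0.0423 with the set as a block). Markers of other cells differed between the arrays. The summed linear level of 11 endothelial markers was 2548 to 2723 on the WT arrays and 279 to 280 on the cKO arrays, although the defining markers Pecam1 and Kdr lay under the dim limit on all 4 arrays and Cdh5 on 3. The sum of 5 suprabasal keratinocyte markers stood at 13720 for WT set 1, 4449 for WT set 2 and 15712 to 16425 in cKO, and that of 5 mitosis genes was 8596 to 11884 in WT and 5593 to 5855 in cKO. The sum of 6 fibroblast markers, of which 4 were dim on every array, was 300 to 348 in WT and 271 to 298 in cKO. Signal from 5′ ends was low on the cKO set 1 array: the added Dap control read 2.95 higher at its 3′ than at its 5′ end there and 1.74 to 1.82 on the other arrays. The nuclear RNA Malat1 was brightest in WT set 2, at 12.35, with 9.80 to 10.56 elsewhere. The part of these differences in the results on glycolysis and hypoxia genes was not tested. In sorted cell samples like these, fewer cells of a type and less RNA per cell cannot be told apart.

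Hypoxia-inducible factors bind short DNA sites with the core letters ACGTG or GCGTG. These letters were looked for on both strands of RefSeq promoter windows of build GRCm38.p6, which run from 250 bases before to 50 bases after a gene's start. In the table of these windows, entries were found for 29 of the 33 genes (41 windows, since several genes have more than 1 start), and not for Slc2a3, Epas1, Angptl4 and Ndrg1. The letters ACGTG stood in 61.0% of the members' windows, against 26.0% of 8443 windows of the genes tested here and 19.6% of all 32851 windows. GCGTG stood in 56.1% of the members' windows, 52.6% of those of tested genes and 32.4% of all. The list was chosen to hold targets of these factors, so a higher share of their core letters is no independent result. Some windows of a gene overlap, as for Aldoa, so a match can count more than once. ACGTG overlaps the E-box CACGTG, which other factors bind and which 14.6% of the members' windows held, and a match is a description of the letters, not a binding site. The 4 windows printed here belong to Bnip3 and Egln3, whose levels were at least 1.5-fold apart between the genotypes in both sets, and to Ldha and Pgk1, textbook targets whose levels overlapped between the genotypes. For Ldha, which has more than 1 start, the first window is shown. Capitals mark the core letters on either strand.
Bnip3, chr7:138909457-138909756, minus strand: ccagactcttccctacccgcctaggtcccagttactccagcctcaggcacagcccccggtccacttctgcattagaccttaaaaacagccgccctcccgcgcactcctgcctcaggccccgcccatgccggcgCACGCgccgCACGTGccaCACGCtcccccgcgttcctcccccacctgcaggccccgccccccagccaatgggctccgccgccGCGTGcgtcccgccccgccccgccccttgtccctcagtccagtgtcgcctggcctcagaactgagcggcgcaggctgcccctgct
Egln3, chr12:54203825-54204124, minus strand: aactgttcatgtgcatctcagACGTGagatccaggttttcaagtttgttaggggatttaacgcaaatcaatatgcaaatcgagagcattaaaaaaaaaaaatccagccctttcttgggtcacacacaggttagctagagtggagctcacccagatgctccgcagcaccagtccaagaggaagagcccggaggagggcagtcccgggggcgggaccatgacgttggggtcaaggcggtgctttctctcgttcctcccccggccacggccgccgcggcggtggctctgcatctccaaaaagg
Ldha, chr7:46845554-46845853, plus strand: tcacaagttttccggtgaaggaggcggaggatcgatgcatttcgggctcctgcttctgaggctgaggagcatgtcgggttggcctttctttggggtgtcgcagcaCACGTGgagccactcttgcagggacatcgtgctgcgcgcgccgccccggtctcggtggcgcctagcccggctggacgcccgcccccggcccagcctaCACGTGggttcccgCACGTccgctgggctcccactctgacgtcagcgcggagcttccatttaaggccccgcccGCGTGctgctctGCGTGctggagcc
Pgk1, chrX:106186850-106187149, plus strand: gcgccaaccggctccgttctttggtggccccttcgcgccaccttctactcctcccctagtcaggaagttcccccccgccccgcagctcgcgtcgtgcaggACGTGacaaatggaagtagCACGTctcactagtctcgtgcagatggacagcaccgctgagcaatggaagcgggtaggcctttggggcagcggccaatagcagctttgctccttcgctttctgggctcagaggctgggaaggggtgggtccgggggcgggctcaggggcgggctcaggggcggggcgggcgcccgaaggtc
The matches started at 5 positions in the Bnip3 window, 1 in that of Egln3, 7 in that of Ldha and 2 in that of Pgk1, with each CACGTG counted as 2 starts. Core letters were thus present both in genes whose genotypes separated and in genes whose genotypes overlapped. Of the windows of the 12 tested members with a window whose cKO arrays both lay above both WT arrays, 65.0% held ACGTG. Of the windows of the other members, those too dim to be tested included, 57.1% did. GCGTG went the other way, in 10 of 20 windows of the former members and 13 of 21 windows of the other members. At least 1 of the cores stood in 16 of 20 and 17 of 21 windows, so the split did not go 1 way for both cores.

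Between the genotypes no gene of the list passed the test, and the values differed from role to role without a test of one role against another. For 7 of the 9 measured genes of upper glycolysis both cKO arrays lay above both WT arrays, but not for Pfkl and Tpi1, and this held for 0 of the 4 lower enzymes from glyceraldehyde phosphate to pyruvate. Bnip3, Ndrg1 and Egln3 separated by at least 1.5-fold in both sets and were 1.88-fold, 1.59-fold and 3.10-fold higher in cKO on the mean log2 scale, and Hk1 and Aldoc followed at 1.54-fold and 1.58-fold. Of the 33 genes, 30 lay above the dim limit and were tested with limma among 8032 genes, and 0 of them passed at an adjusted p under 0.05, where 0.0872% of all genes did (0.0249% higher and 0.0623% lower). At an unadjusted p under 0.05, 7 of the 30 did, all higher in cKO (Aldoc, Bnip3, Egln3, Hk1, Ndrg1, Pfkm and Pfkp), where 14.2% of all genes did (8.37% higher and 5.8% lower). The cKO array was the higher within both sets for 15 of the 30 (35.8% of all genes) and the lower for 4 (27.9%), namely Ero1a, Ldhb, Pgam1 and Pgk1. Further probe sets above the dim limit did not all show this. Exceptions were found for Ero1a, Ldhb and Pgk1 among the lower genes, and for Aldoa, Ndrg1, Pfkp and Slc2a1 among the higher. Both cKO arrays lay above both WT arrays for 13 of the 30 genes (26.7% of all genes) and below them for 1, Ldhb (19.9%). The difference was at least 1.5-fold upward within both sets for 3 genes (3.04% of all genes) and downward for 0 (1.64%). The median difference of the 30 genes was 0.17 on the log2 scale, 0.19 in set 1 and 0.16 in set 2, beside 0.03 over all tested genes. No member was called with a variance trend or with the set as a block either.

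**Figure D1:**
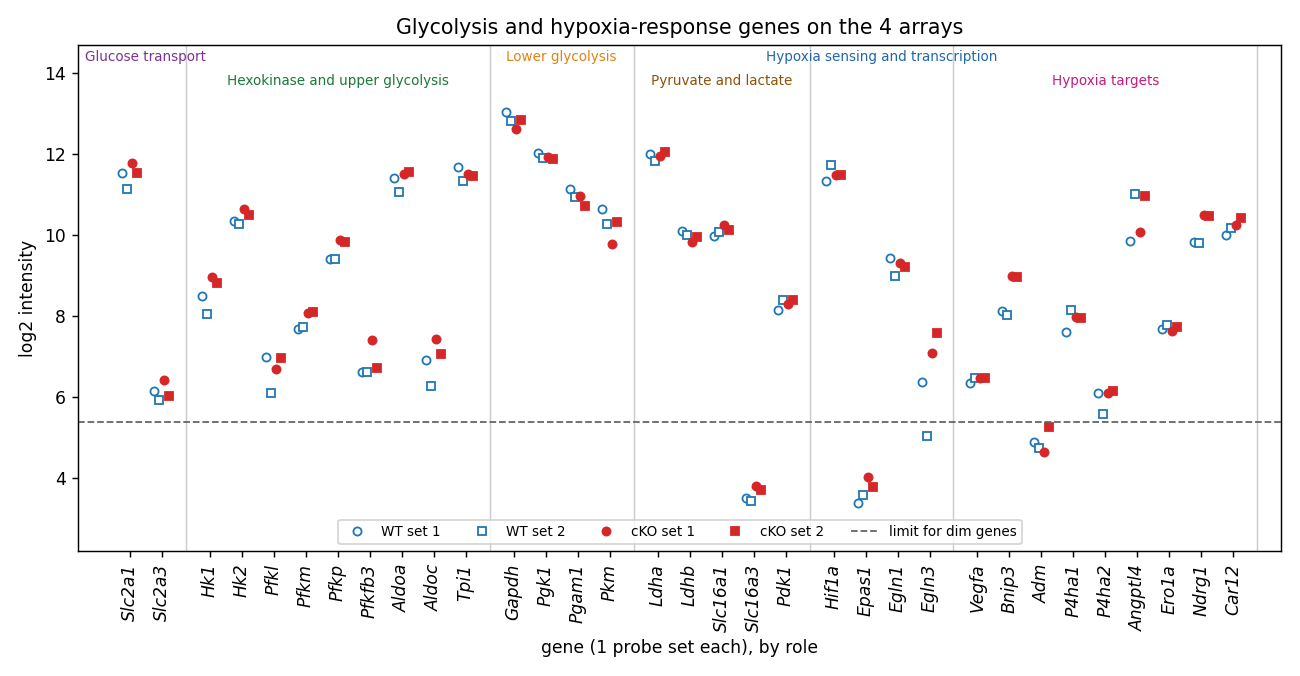
Level of each measured gene on the 4 arrays, as log2 intensity on the vertical axis, with the genes grouped by role on the horizontal axis; open blue marks are WT, filled red marks cKO, circles set 1, squares set 2, and the dashed line is the dim limit of 5.40. The cKO marks of Bnip3 and Ndrg1 lie together above the WT marks, those of Angptl4 separate by set, and Slc16a3, Epas1 and Adm lie under the limit on all 4 arrays; levels of different genes come from different probe sets and are not comparable.

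Glucose transport is carried in keratinocytes mainly by Slc2a1, the basal glucose transporter. Slc2a1 read 11.53 and 11.13 in WT and 11.79 and 11.53 in cKO in sets 1 and 2 (log2 level). The cKO array was the higher within each set, by 0.26 and 0.39, but the groups met, since the WT set 1 and cKO set 2 arrays were at the same level, and the mean difference of 0.33 (SE 0.21) did not pass limma's test (adjusted p = 0.524). When 1 array was left out it became 0.13 (WT set 2), 0.20 (cKO set 1) or 0.52 (WT set 1). The further Slc2a1 probe sets did not all show this pattern. One differed by 0.17 and 0.46 within the sets, with both cKO arrays above both WT arrays. Another differed by -0.03 and 0.51, with overlapping groups. Slc2a3, a high-affinity transporter of neurons and blood cells, was weak at 5.93 to 6.42 on the 4 arrays, and its difference of 0.18 was smaller than its SE of 0.20.

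Hexokinase and upper glycolysis held 9 measured genes, and for 7 of them both cKO arrays lay above both WT arrays (26.7% of all genes did so). Hk1, a hexokinase of most tissues, read 8.50 and 8.05 in WT and 8.98 and 8.82 in cKO. Its difference was 0.62 (SE 0.21, limma unadjusted p = 0.0251, adjusted p = 0.305), 0.47 in set 1 and 0.77 in set 2, and 0.39 without the WT set 2 array. Hk2, the inducible hexokinase of insulin-responsive and dividing cells, read 10.36 and 10.27 in WT and 10.65 and 10.49 in cKO, a difference of 0.26 (SE 0.16) that did not pass (limma adjusted p = 0.518). The hexokinases thus lay on the same side in both sets, with the larger difference for Hk1.

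The phosphofructokinases catalyse the committed step, and their subunit genes differed in pattern. Pfkp, the platelet-type subunit, read 9.41 on both WT arrays and 9.88 and 9.83 on the cKO arrays, so that the gap of 0.44 (SE 0.15) far exceeded the gap between arrays of a genotype (limma unadjusted p = 0.0281, adjusted p = 0.315). A further probe set for Pfkp, at a lower level, differed by -0.11 and 0.19 within the sets, and the mean of both probe sets by 0.24. Pfkm, the muscle-type subunit, read 7.67 and 7.73 in WT and 8.09 and 8.10 in cKO, a difference of 0.39 (SE 0.15, limma adjusted p = 0.338) that was alike in both sets. Pfkl, the liver-type subunit, crossed: its cKO array was lower by 0.29 in set 1 and higher by 0.86 in set 2, where the WT array was at 6.12 and the other 3 arrays at 6.70 to 6.99. Pfkfb3 makes fructose 2,6-bisphosphate, the strongest activator of phosphofructokinase. It read 6.61 on both WT arrays, 7.42 on the cKO set 1 array and 6.72 on the cKO set 2 array, so its mean difference of 0.46 rested on the cKO set 1 array and was 0.11 without it.

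Among the aldolases, Aldoc, the form best known from brain, read 6.92 and 6.27 in WT and 7.44 and 7.07 in cKO. Its difference was 0.66 (SE 0.27, limma unadjusted p = 0.0494, adjusted p = 0.352). Both cKO arrays lay above both WT arrays, and the WT set 2 array was the lowest; without it the difference was 0.33. Aldoa, the widely expressed aldolase, read 11.41 and 11.06 in WT and 11.51 and 11.57 in cKO, a difference of 0.31 (SE 0.18) made mostly in set 2 (0.10 and 0.51), which became 0.14 with WT set 2 left out and 0.48 with WT set 1 left out. Tpi1, the triose phosphate isomerase, had a difference of -0.02 (SE 0.18), with values of 11.34 to 11.67 that overlapped between the genotypes.

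The lower glycolytic enzymes were level or lower in cKO, and their 4 measured genes had a median difference of -0.20 (-0.30 within set 1, 0.01 within set 2). Gapdh, which oxidises glyceraldehyde phosphate, read 13.06 and 12.81 in WT and 12.63 and 12.84 in cKO at the 3′ end of its transcript, so the cKO array lay below its WT counterpart in set 1 and slightly above it in set 2. Its probe sets for the middle and the 5′ end, which are control probe sets of the array, were lower on the cKO set 1 array by 0.71 and 0.87 than on the WT set 1 array, where the 3′ one was lower by 0.42. In set 2 the same probe sets differed by 0.03, -0.01 and 0.03. Pkm, the pyruvate kinase of non-liver tissues, showed the same pattern, at 10.66 and 10.28 in WT and 9.78 and 10.34 in cKO, so that its difference was -0.88 in set 1 and 0.05 in set 2 (mean -0.41, SE 0.25, limma adjusted p = 0.505). Without the cKO set 1 array the difference of Pkm was -0.13 and that of Gapdh -0.09. Pgk1, the phosphoglycerate kinase, stayed between 11.89 and 12.04 on all 4 arrays and differed by -0.06 (SE 0.16). Pgam1, the phosphoglycerate mutase, read 11.14 and 10.96 in WT and 10.97 and 10.73 in cKO, a difference of -0.20 (SE 0.18), with groups that met.

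Of the 4 tested pyruvate and lactate genes, 1 had both cKO arrays above both WT arrays and 1 had them below (26.7% and 19.9% of all genes). Ldha, the lactate dehydrogenase subunit that favours lactate formation, read 12.00 and 11.83 in WT and 11.97 and 12.06 in cKO, a difference of 0.10 (SE 0.16, limma adjusted p = 0.825) whose 95% interval ran from -0.30 to 0.50. Ldhb, the subunit that favours lactate use, read 10.11 and 10.01 in WT and 9.84 and 9.96 in cKO. On the probe set used, it was the 1 tested gene of the list whose cKO arrays both lay below both WT arrays. The mean difference was -0.15 (SE 0.16, limma adjusted p = 0.703). Another Ldhb probe set differed by -0.15 and 0.01 within the sets, with overlapping groups, while the rest kept both cKO arrays below. Slc16a1, a monocarboxylate transporter that carries lactate across the cell membrane, read 9.97 and 10.08 in WT and 10.24 and 10.14 in cKO. Its cKO arrays lay above both WT arrays by a mean of 0.16, about as much as its SE of 0.16. Slc16a3, the lactate exporter of strongly glycolytic cells, lay at 3.43 to 3.81, under the dim limit on all 4 arrays, and was not tested. Pdk1 curbs the use of pyruvate inside the mitochondrion by phosphorylating pyruvate dehydrogenase. It read 8.15 and 8.40 in WT and 8.31 and 8.39 in cKO and differed by 0.08 (SE 0.17). A further Pdk1 probe set read 7.60 and 8.08 in WT and 8.11 and 8.33 in cKO, with both cKO arrays above both WT arrays and a difference of 0.38.

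**Figure D2:**
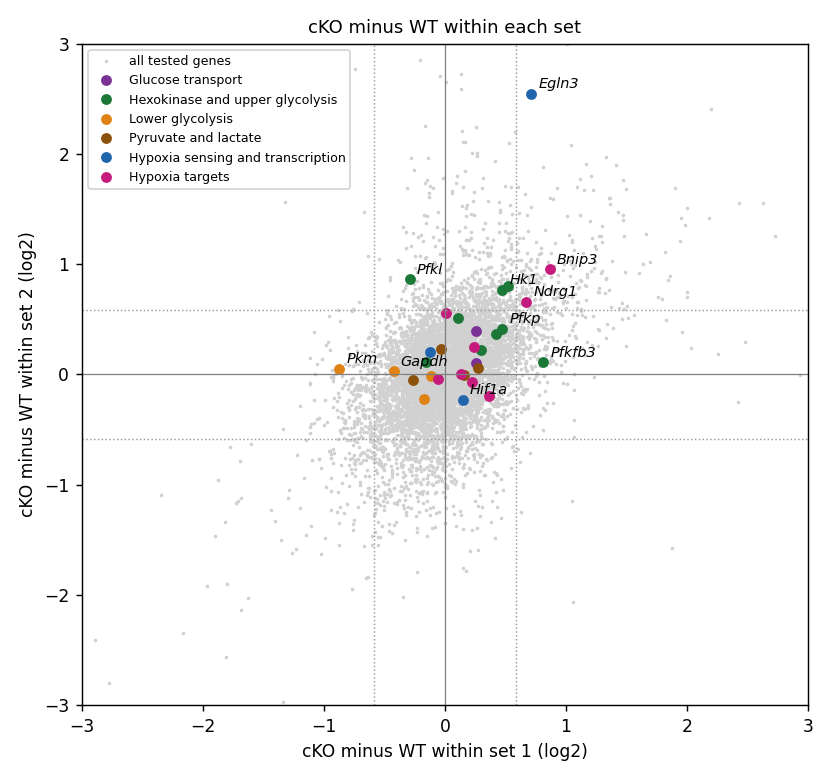
Difference cKO minus WT within set 1 (horizontal axis) and within set 2 (vertical axis), both in log2 units, for the 30 tested genes coloured by role and for all 8032 tested genes in grey; dotted lines mark a 1.5-fold difference, and 19 grey genes lie outside the axes. Bnip3, Ndrg1 and Egln3 lie past 1.5-fold in both sets, Pkm and Gapdh are low in set 1 and near 0 in set 2, and Pfkl lies on opposite sides of 0 in the sets.

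Of the oxygen-sensing genes, the hydroxylase gene Egln3 separated the genotypes and the factor gene Hif1a did not. Egln3, which is itself induced in low oxygen, read 6.39 and 5.03 in WT and 7.10 and 7.58 in cKO (means 5.71 ± 0.96 and 7.34 ± 0.34, SD, n = 2). Both cKO arrays lay above both WT arrays, and the WT set 2 array lay under the dim limit. The difference of 1.63 (SE 0.45, limma unadjusted p = 0.011, adjusted p = 0.246) was 0.72 in set 1 and 2.55 in set 2. Without the WT set 2 array, which also had the low suprabasal keratinocyte markers, it was 0.95. A further Egln3 probe set differed by 0.90 and 1.49. Egln1, the main hydroxylase of the pathway, read 9.43 and 9.00 in WT and 9.31 and 9.21 in cKO, a difference of 0.04 (SE 0.20) with overlapping groups.

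Hif1a, the widely expressed factor subunit, is regulated chiefly through its protein, which arrays do not measure. It read 11.34 and 11.72 in WT and 11.49 on both cKO arrays, so that the cKO arrays lay between the WT arrays (difference -0.04, SE 0.19). Epas1, the factor subunit best known from endothelium, read 3.40 and 3.57 in WT and 4.04 and 3.77 in cKO. It was under the dim limit on all 4 arrays, the WT arrays with their higher endothelial markers included, and was not tested.

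Of the 9 measured hypoxia targets, 2 were at least 1.5-fold higher in cKO in both sets (3.04% of all genes) and 0 lower (1.64%). Bnip3, a mitochondrial outer membrane protein that promotes mitophagy, read 8.13 and 8.02 in WT and 8.99 and 8.98 in cKO (means 8.08 ± 0.07 and 8.99 ± 0.01, SD, n = 2). The arrays of a genotype were close to each other and the genotypes stood 0.91 apart (SE 0.16). limma gave Bnip3 an unadjusted p of 0.00118 and an adjusted p of 0.144, and over the alternatives the adjusted p ran from 0.0695 with the set as a block to 0.658, so it passed in none of them. Its difference stayed between 0.86 and 0.96 whichever array was left out.

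Ndrg1, a cytoplasmic protein of epithelia whose gene responds to hypoxia and to differentiation, read 9.83 and 9.81 in WT and 10.50 and 10.47 in cKO on its brightest probe set. The difference was 0.66 (SE 0.15, limma unadjusted p = 0.00509, adjusted p = 0.211), and the arrays of each genotype lay close together. The probe sets of Ndrg1 did not all show this. In set 2 all 5 were higher in cKO, by 0.66 to 1.09, and in set 1 the 3 with the highest levels were higher by 0.58 to 0.67 while the other two differed by -0.39 and -0.43. The mean of all 5 probe sets differed by 0.53.

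The other hypoxia targets differed by less than 1.5-fold on average between the genotypes. Car12, a membrane carbonic anhydrase that acts on pH outside the cell, read 10.01 and 10.17 in WT and 10.25 and 10.42 in cKO, a difference of 0.25 (SE 0.17) that was alike in both sets. P4ha2, a collagen prolyl hydroxylase subunit, read 6.10 and 5.60 in WT and 6.11 and 6.16 in cKO, so its difference of 0.28 came from the low WT set 2 array, without which it was 0.03. Its relative P4ha1 crossed, by 0.36 in set 1 and -0.20 in set 2. Vegfa, the vascular growth factor and the best-known hypoxia target, read 6.35 and 6.47 in WT and 6.49 and 6.47 in cKO. Its difference was 0.07 (SE 0.16, limma adjusted p = 0.882), with a 95% interval from -0.32 to 0.45. Ero1a, an oxidase of the endoplasmic reticulum, differed by -0.05 (SE 0.16). Its weaker probe sets differed by 0.40 and 0.18 in set 1 and by -0.16 and -0.09 in set 2. Adm, the gene for the vasodilator peptide adrenomedullin, lay under the dim limit on all 4 arrays at 4.65 to 5.26.

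**Figure D3:**
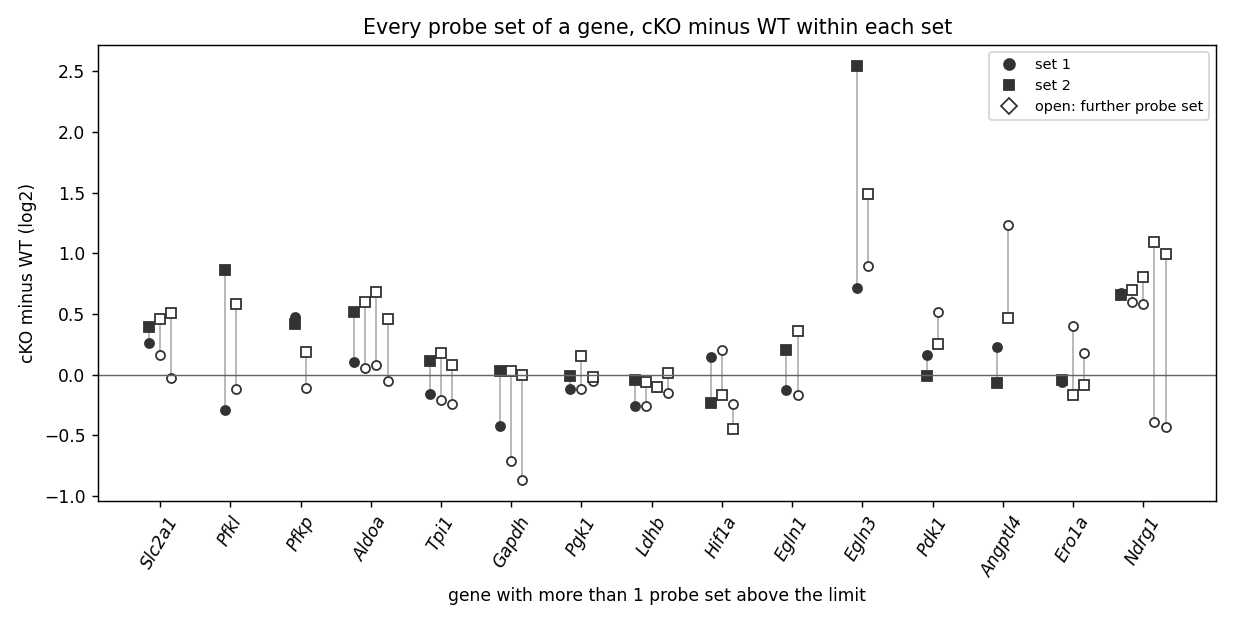
Difference cKO minus WT (log2, vertical axis) of every probe set above the dim limit for the 15 genes that have more than 1, with set 1 as circles, set 2 as squares and a line joining the sets of a probe set; filled marks are the probe set used in the text. The probe sets of Egln3 are all above 0, those of Gapdh spread in set 1 and meet in set 2, and 2 of the 5 for Ndrg1 lie below 0 in set 1.

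Between the sets no gene of the list passed the test, and Angptl4 had the largest mean difference. Of the 30 tested genes 0 passed limma's test of set 2 against set 1, where 0.0% of all genes did, and 1, Angptl4, had an unadjusted p under 0.05, where 2.86% of all genes did (1.26% higher and 1.61% lower). Within both genotypes the set 2 array was the higher for 6 of the 30 genes (19.8% of all genes) and the lower for 11 (35.8%). No member passed with a variance trend or with the genotype as a block. Both set 2 arrays lay above both set 1 arrays for 4 genes (11.1% of all genes) and below them for 6 (19.5% of all genes). A difference of at least 1.5-fold within both genotypes was found upward for Angptl4 (0.573% of all genes) and downward for 0 genes (0.809%). The median difference of the 30 genes was -0.05, -0.01 within cKO and -0.12 within WT, the same as the -0.05 over all tested genes.

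Angptl4, a secreted inhibitor of lipoprotein lipase that responds to hypoxia, to fatty acids and to glucocorticoids, read 9.86 in WT and 10.08 in cKO in set 1 and 11.03 in WT and 10.96 in cKO in set 2. Both genotypes were higher in set 2, by 1.17 in WT and 0.88 in cKO, and the mean difference was 1.02 (SE 0.18), or 2.03-fold. limma gave it an unadjusted p of 0.00216 and an adjusted p of 0.999. A weaker Angptl4 probe set was higher in set 2 by 1.75 in WT and 0.98 in cKO. Between the genotypes Angptl4 differed by 0.08 (SE 0.45) on the probe set used and by 0.85 on the weaker one, where the WT set 1 array lay under the dim limit and the groups overlapped.

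The 6 genes with both set 2 arrays below both set 1 arrays (19.5% of all genes) were Slc2a1, Slc2a3, Tpi1, Pgk1, Pgam1 and Egln1. Further probe sets did not all show this. For Slc2a1, Tpi1, Pgk1 and Egln1 a further probe set had overlapping sets. Within cKO it was higher in set 2, by 0.26, 0.02, 0.05 and 0.03. Another probe set of Tpi1 and another of Pgk1 kept both set 2 arrays below both set 1 arrays. The differences were small, from -0.33 for Slc2a1 and -0.31 for Slc2a3 to -0.09 for Pgk1, and for Slc2a1 they were -0.40 within WT and -0.26 within cKO. Aldoc, with lower values in set 2 within both genotypes (-0.65 in WT and -0.38 in cKO), had overlapping sets. Besides Angptl4, both set 2 arrays lay above both set 1 arrays for Hif1a (0.20), Pdk1 (0.17) and Ero1a (0.11). Car12 (0.17) and Pfkm (0.03) read higher in set 2 within both genotypes, with overlapping sets. A weak Hif1a probe set differed by 0.98 between the sets, 1.08 within WT and 0.87 within cKO. Both its set 1 arrays lay under the dim limit, at 5.25 in WT and 5.01 in cKO. A brighter further Hif1a probe set differed by 0.29, 0.48 within WT and 0.11 within cKO. The probe set used differed by 0.39 within WT and 0.01 within cKO. Egln3 and Pfkl went opposite ways within the genotypes: Egln3 differed by -1.35 in WT and 0.48 in cKO, and Pfkl by -0.87 and 0.28, in each case with the WT set 2 array the lowest of the 4. Pfkfb3 was lower in set 2 by 0.70 within cKO and had a difference of 0.00 within WT.

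**Figure D4:**
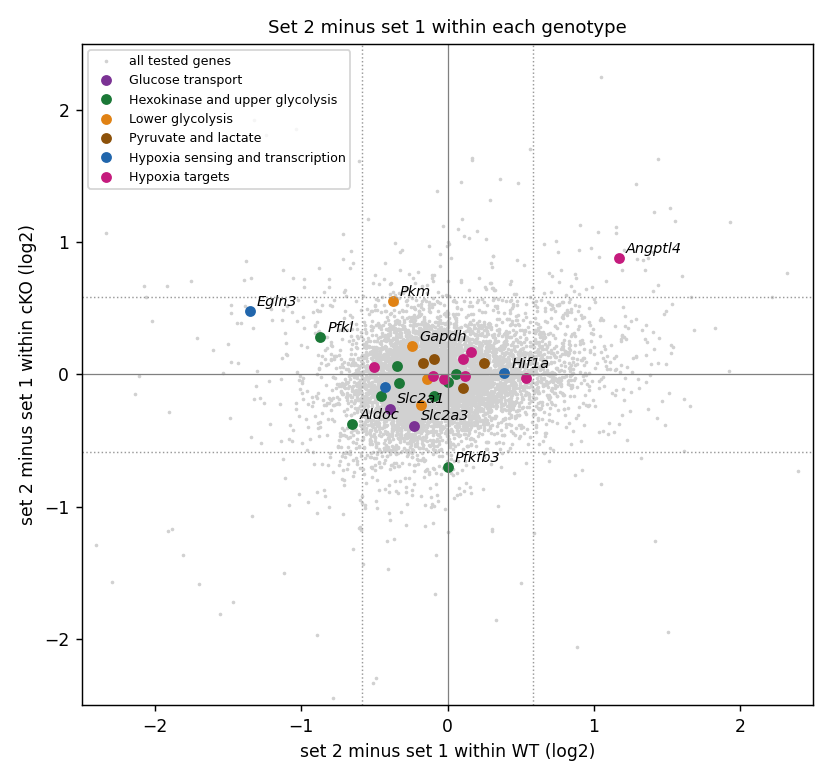
Difference set 2 minus set 1 within WT (horizontal axis) and within cKO (vertical axis), both in log2 units, for the 30 tested genes coloured by role and for all 8032 tested genes in grey; dotted lines mark a 1.5-fold difference, and 11 grey genes lie outside the axes. Angptl4 lies past 1.5-fold in both genotypes, whereas Egln3, Pfkl and Pkm lie on opposite sides of 0 in the genotypes.

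Other genes of glucose use and of the hypoxia response were read from wider lists. Of 18 tested further glycolysis and glucose genes 0 passed limma's test in either comparison, and 4 were higher and 1 lower in cKO at an unadjusted p under 0.05 (8.37% and 5.8% of all genes). Their median difference between genotypes was 0.03, the same as over all genes. The 4 were the fructose transporter gene Slc2a5 (0.75), the glycogen phosphorylase gene Pygl (0.58), the phosphoglucomutase gene Pgm1 (0.51) and Gapdhs (0.50), and the lower one was Bpgm, the bisphosphoglycerate mutase gene (-0.39). Slc2a5 lay under the dim limit on the WT set 2 array. Pgm2, another phosphoglucomutase gene, differed by 0.36 (limma unadjusted p = 0.0701) and the glycogen phosphorylase gene Pygb by -0.49; Pgm1, Bpgm and Pygb are named after their values were seen. Of 9 tested pentose phosphate genes, which draw glucose 6-phosphate away to make NADPH and ribose, 0 passed, 1 was higher and 5 were lower in cKO within both sets (35.8% and 27.9% of all genes), and the median was -0.08. Among them the phosphoribosyl pyrophosphate synthetase gene Prps2 differed by -0.51 (-0.53 and -0.49). Between the sets, Tkt, H6pd and Pgd of the same pathway differed by -0.43, -0.46 and -0.38.

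Of 6 tested genes of pyruvate dehydrogenase and of pyruvate entry into mitochondria 0 passed. All lay between -0.22 for the pyruvate carrier gene Mpc1 and 0.12 for the pyruvate dehydrogenase subunit gene Dlat in the genotype comparison. Dlat read lower in set 2 within both genotypes, with a mean difference of -0.28. Of 9 tested further regulators of the hypoxia pathway 0 passed in either comparison. Both cKO arrays lay above both WT arrays for 3 of the 9 (26.7% of all genes) and below them for 2 (19.9%). Their genotype differences had a median of 0.05 and went down to -0.23. The hydroxylase gene Egln2 differed by 0.51 between genotypes, 0.21 in set 1 and 0.81 in set 2, the ubiquitin ligase gene Siah1a by 0.34 and the coactivator gene Crebbp by 0.26, while Cited2, whose product competes with the factors for that coactivator, was lower in set 2 by 0.67 within cKO and 0.20 within WT.

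Of 28 tested further hypoxia targets 0 passed limma's test in either comparison. In cKO, 7 were higher and 3 lower at an unadjusted p under 0.05 (8.37% and 5.8% of all genes), and the median difference was 0.13, 0.06 in set 1 and 0.17 in set 2. Cxcl12, a chemokine gene of stroma, endothelium and some epithelia, read 9.04 and 9.34 in WT and 10.67 and 10.35 in cKO. Its difference of 1.32 had an adjusted p of 0.112 with limma, and it passed with the set as a block (adjusted p = 0.0433). It was the 1 gene of the 28 that was at least 1.5-fold higher within both sets (3.04% of all genes). Errfi1, a feedback inhibitor of the epidermal growth factor receptor, differed by 0.65, the Myc antagonist gene Mxi1 by 0.58 and Selenbp1, a selenium-binding protein gene, by 0.54, each with both cKO arrays above both WT arrays and none past the test. Ppp1r3c, a glycogen-targeting phosphatase subunit gene named here after its values were seen, had the highest mean difference of the list, 1.39, but it was 2.48 in set 1 and 0.29 in set 2. The 3 lower genes, also named after their values were seen, were the transferrin receptor gene Tfrc (-0.63), the endothelin gene Edn1 (-0.47) and the cytokine gene Mif (-0.38), each with both cKO arrays below both WT arrays.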

How the data were processed

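RNA of the 4 samples was hybridised to 1-colour Affymetrix arrays, 1 sample to an array. The deposited values are RMA intensities on a linear scale per the submitters' processing notes and the values themselves (5.29 to 25561), one per probe set, so background correction and normalization between arrays were done by the authors; which RMA software and settings they used is not given in those notes. Arrays have no read depth, and precision here is limited by their number.

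The intensities were turned to log2. Of 22690 probe sets, 20393 carry 1 gene symbol in the platform annotation, 691 several and 1606 are not in it; of the first, 20364 were found in RefSeq, with 0 symbols changed. Control probe sets with a symbol (13) were kept, and Gapdh rests on one of them. One probe set stood for each of 12394 genes, the one with the highest mean over the 4 arrays, and its means are set beside no other gene's. Genes under the percentile 40 of all probe sets (log2 5.40) and sex-linked marker genes were left out, which left 8032. Each comparison was fitted over the 4 arrays with moderated linear models (limma 3.58.1, R 4.3.3, Benjamini-Hochberg adjustment over the 8032 genes, threshold 0.05), without a block. A difference is on the log2 intensity scale; the summed markers are linear.

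The WT and the cKO array of a set share 1 state word in the labels. Deviations of same-set arrays from the genotype means correlated at r = 0.192 over the 8032 genes. The set was therefore read as possibly pairing the samples. In the comparison of genotypes, the SEs and p-values leave this pairing out unless a block is named. They thus count a difference between the sets as spread within a genotype. On simulated data with 200 of 8032 genes changed by 1 or 2 log2 units in this comparison of genotypes, the fit without a block found 23.2% and 92.3% of them, with 4.48% of its calls false. With the set as a block it found 10.4% and 92.2%, with 7.43% false, a larger share than the threshold allows. The simulated arrays held no difference between the sets, so the simulation cannot tell which fit does better on data that hold one.

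The genes described, the further pathway lists and the marker lists were chosen with earlier results of these data known. Every listed gene with a usable probe set is named, and of the further lists up to 4 genes with the largest difference of one sign within both pairs. The alternatives were no filter or percentile 60, averaging the probe sets of a gene, centring, a second quantile normalization, a variance trend with robust fitting, the block and leaving out each array. Marker lists not given in the report summed to these linear levels over the 4 arrays: basal keratinocyte 33641 to 39139, pericyte 166 to 281, skeletal muscle 153 to 165 and melanocyte 158 to 222, while 6 of 7 leukocyte markers and all measured fat cell and red blood cell markers lay under the dim limit on all arrays.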

Additional observations from a re-analysis of the deposited data

How the results depend on the processing

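No listed gene passed the test in either comparison under any alternative, including the fit without a filter. The number of all genes called between genotypes was 7, and it was 0 with the percentile 60 filter, 28 with a variance trend and robust fitting and 2 to 16 when 1 array was left out; with the set as a replicate block it was 83, none of them a listed gene. Between the sets 0 were called, 1 with the genotype as a block, and 0 with any array left out (230 genes had an unadjusted p under 0.05 in limma). Of the genes named in the report, the block gained a call for Cxcl12 and Tbx1 and changed no other call. The median genotype difference of the listed genes was 0.17, 0.082 with the percentile 60 filter, which tests fewer of them, 0.23 with the mean of probe sets, and 0.13 to 0.22 when 1 array was left out; the median set difference was -0.05 and ran from -0.19 to 0.074. Averaging probe sets turned the genotype difference of Ero1a to 0.037 and the set differences of Pfkp to 0.048, Gapdh to 0.090 and Ndrg1 to 0.32; a second quantile normalization turned that of Gapdh to 0.0023, and centring that of Ldhb to -0.0054. The causes were not tested. Leaving out 1 array turned the sign of 10 genotype differences, whose ranges were -0.012 to 0.38 for Slc2a3, -0.15 to 0.72 for Pfkl, -0.19 to 0.14 for Tpi1, -0.13 to 0.0047 for Pgk1, -0.23 to 0.15 for Hif1a, -0.17 to 0.25 for Egln1, -0.049 to 0.20 for Pdk1, -0.19 to 0.35 for P4ha1, -0.50 to 0.67 for Angptl4 and -0.11 to 0.0057 for Ero1a. For set differences the ranges were -0.69 to 0.075 for Hk1, -0.27 to 0.022 for Hk2, -0.73 to 0.13 for Pfkl, -0.18 to 0.24 for Pfkm, -0.26 to 0.21 for Pfkp, -0.76 to 0.055 for Pfkfb3, -0.40 to 0.11 for Aldoa, -0.23 to 0.20 for Gapdh, -0.35 to 0.53 for Pkm, -0.16 to 0.074 for Ldha, -0.12 to 0.14 for Ldhb, -0.14 to 0.13 for Slc16a1, -1.71 to 0.84 for Egln3, -0.015 to 0.12 for Vegfa, -0.53 to 0.42 for Bnip3, -0.50 to 0.056 for P4ha2 and -0.36 to 0.31 for Ndrg1. With 1 array left out, the lone array of a group is assumed to vary like the others.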

Other observations

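Within cKO, the probe sets of Ndrg1 also parted between the sets. The 2 with the lowest levels read 7.89 and 7.48 in set 1 and 9.23 and 8.90 in set 2, which is 1.34 and 1.42 higher in set 2, while the other 3 differed by -0.03 to 0.26. Within WT all 5 differed by -0.15 to 0.11. On the same cKO set 1 array, the Gapdh probe sets for the middle and the 5′ end of the transcript read 0.53 and 0.56 lower than in cKO set 2, and the one for the 3′ end 0.21 lower. Where the Ndrg1 probe sets lie along the transcript was not looked up, and the part of 5′ signal in the Ndrg1 values was not tested.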
